A study of Mus musculus with 8 samples.

Results

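The comparison described here is that of P19 cells exposed for 48 h to MHY1485 (MHY) at 10 µM with P19 cells given the solvent DMSO for the same time. P19 is an established line of mouse embryonal carcinoma cells, here wild type and kept undifferentiated. The medium was renewed every 24 h, and control cells were given the same amount of DMSO. Members of the comparison are 4 of the 8 samples of the series, 2 under each treatment, and the other 4 are the same treatments at 24 h. Native mRNA was read by nanopore direct RNA sequencing, in which each read gives 1 transcript and the length of its poly(A) tail in nucleotides (nt). Members were taken by library name, DMSO 24 and DMSO 25 against MHY 24 and MHY 25 (these numbers are names, not hours), and only reads whose tail estimate carried the quality tag PASS were kept, once per read and transcript.

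MHY1485 is a small molecule used to activate mTOR, a kinase that joins nutrient and growth signals to protein synthesis, and it is also known to hinder the fusion of autophagosomes with lysosomes. In its complex mTORC1 it promotes translation of TOP mRNAs, which begin with a run of pyrimidines and encode ribosomal proteins and elongation factors, and it raises glycolytic and sterol gene expression through the transcription factors HIF-1 and SREBP. At the lysosome, where mTORC1 is switched on, it holds back TFEB, a transcription factor of lysosomal and autophagy genes.

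DMSO 24 held 213673 kept reads, DMSO 25 held 316546, MHY 24 held 311560 and MHY 25 held 214090, spread over 2 sequencing runs that each contained all 4 libraries. Markers of undifferentiated embryonal carcinoma cells summed to between 3935 and 4353 reads per 1000000 kept reads (RPM), with 1 of 18 (Zfp42) at 0 in the 4 libraries, while neuronal markers, with 5 of 14 at 0, summed to 337 and 351 RPM in DMSO 24 and DMSO 25 and to 263 and 252 in MHY 24 and MHY 25. The neuronal sum was thus lower in both MHY libraries, at 0.75 of the DMSO mean, from 54 to 111 reads a library, and its part in the results was not tested. Endoderm markers gave 1 to 7 reads a library and mesoderm markers 25 to 98. The mesoderm sums were 117 and 310 RPM in DMSO 24 and DMSO 25, and 80.2 and 271 RPM in MHY 24 and MHY 25. MHY 25 also carried 317 spike-in reads against 6 to 16 in the other libraries, and these were set aside. The study calls the 2 libraries of a group biological replicates, but the labels do not say that they came from separate cultures. The p-values below therefore measure spread between libraries only. The limma fits estimate it from all 8 libraries, those of 24 h included, with moderation across transcripts. With 2 against 2 libraries, an exact permutation test cannot give a two-sided p below 0.3333.

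Read numbers were compared first, to ask which mRNAs changed in amount under MHY. Of the transcripts tested, 19 of 33 in the glycolysis list, 5 of 11 of other hypoxia-response genes and 2 of 29 of sterol and fatty acid synthesis fell, of which 5, 1 and 0 were called when the library MHY 24 was left out. A small set that included Tmsb4x, Vim, Cd63 and Ckb rose. A transcript was tested where 2 or more of the 8 libraries had 10 or more of its reads. Levels are given as normalised RPM, scaled by median-of-ratios size factors, and compare the same transcript between libraries. Of 4104 tested, 71 (1.73%) were called by limma voom at a Benjamini-Hochberg adjusted p under 0.05, 16 higher (0.39%) and 55 lower (1.34%). In both directions together 528 of the 4104 had an unadjusted p under 0.05 (limma), and 47.8% of all effects were above 0. With libraries scaled by total reads the calls were 22 higher and 24 lower, and with the 48 h libraries alone there were 33 calls. Of the 71, 1 (Tagln) had passed the read filter through the MHY libraries of 48 h alone, and none through the DMSO libraries of 48 h alone. The calls depended on single libraries: 13 were called without MHY 24 and 17 without DMSO 25, against 150 without MHY 25 and 75 without DMSO 24. The effect was over 1.5 times smaller in 37 of the 71 without MHY 24, and in 8 without DMSO 25. Transcripts of 9 genes were called in each of these 4 fits, namely Aldoa, Gapdh, Ldha, Pgk1, Tpi1, Fam162a, Ckb, Tmsb4x and Ftl1-ps1. In bulk RNA, fewer cells that express a gene and less of its RNA in each cell cannot be told apart.

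Glycolysis was the list with the most transcripts called lower. Its reads made up 2.98% and 3.23% of all reads in DMSO 24 and DMSO 25, and 1.84% and 2.40% in MHY 24 and MHY 25. The MHY mean was 0.683 of the DMSO mean, a difference of -0.985 percentage points, and the 2 groups did not overlap (exact permutation test, p = 0.3333). Of the 24 genes of the list 18 had a transcript that could be tested, giving 33 transcripts, of which 19 were called lower (57.6%, from 12 genes) and none higher. The effect was below 0 in 32 of 33 and its median was -0.76 on the log2 scale, while the median of all 4104 transcripts was -0.02. In 26 of the 33 the MHY libraries were both lower than either DMSO library, as they were in 21.8% of all transcripts (and both higher in 18.3%). Transcripts of 1 gene share exons and reads of uncertain origin, so they are not independent. With reads summed per gene, 13 of 20 glycolytic genes were called lower.

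The enzymes of the lower part of the pathway, which harvest ATP, were called in 9 of 12 transcripts. Pgk1 (ENSMUST00000081593, chrX:106187100-106203699, mm10), whose product makes the first ATP of the pathway, was at 2035 and 2497 normalised RPM in DMSO 24 and DMSO 25, and at 837 and 1190 in MHY 24 and MHY 25. Its level under MHY was 0.429 of that under DMSO (log2 effect -1.22 ± 0.13 SE, n = 2, limma adjusted p = 1.46e-12), and the groups did not overlap. The most-read transcript of Gapdh, the enzyme that oxidises glyceraldehyde phosphate, stood at 8496 and 8093 under DMSO and at 5792 and 6112 under MHY (log2 effect -0.48 ± 0.07, limma adjusted p = 1.53e-06). Here the 2 libraries of a group lay close to each other, and the fall was small against that of Pgk1. Pkm, pyruvate kinase, was at 3432 and 3809 under DMSO and at 1752 and 2802 under MHY (-0.76 ± 0.11, limma adjusted p = 5.2e-07). Pgam1, phosphoglycerate mutase, was at 1547 and 2088 under DMSO and 993 and 1412 under MHY, and the most-read transcript of Eno1, enolase, at 1533 and 1848 under DMSO and 1002 and 1435 under MHY. Both fell, by 0.66 and 0.53 on the log2 scale. Reads of Eno1 and of its near-identical copy Eno1b, which also fell, cannot be assigned with certainty.

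In the upper part of the pathway, which splits glucose into trioses, 6 of 9 transcripts were called lower. Tpi1, triose phosphate isomerase, was at 1636 and 1682 normalised RPM under DMSO and at 646 and 994 under MHY (log2 effect -1.08 ± 0.14, limma adjusted p = 2.43e-09). Aldoa, the aldolase that makes the trioses, was at 1519 and 1926 under DMSO and at 775 and 1112 under MHY (-0.93 ± 0.13, limma adjusted p = 3.18e-07). The groups of both genes were well apart, with the lower value each time in MHY 24. Pfkl, a phosphofructokinase subunit at the committed step of the pathway, was at 225 and 279 under DMSO and at 92.7 and 141 under MHY (-1.20 ± 0.24, limma adjusted p = 5.98e-04). Gpi1, glucose phosphate isomerase, was at 328 and 393 under DMSO and at 200.4 and 209 under MHY (-0.83 ± 0.20, limma adjusted p = 0.00821).

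For lactate, Ldha and Slc16a3 were called lower. Ldha, which turns pyruvate into lactate, was at 2377 and 2611 under DMSO and at 1041 and 1635 under MHY (log2 effect -0.98 ± 0.12, limma adjusted p = 2.31e-09). The more-read transcript of Slc16a3, the lactate exporter MCT4, was at 403 and 292 under DMSO and at 86.7 and 173 under MHY, a fall to 0.346 of the DMSO level (-1.53 ± 0.23, limma adjusted p = 8.47e-07). Of 7 transcripts of glucose and lactate transporters, 2 were called lower, both of them of Slc16a3, and the median of the 7 was -0.37. Slc2a1 and Slc2a3, the glucose importers, and Slc16a1 had no transcript called.

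The size of the fall rested in part on MHY 24, which was lower than MHY 25 for each of these genes. Why MHY 24 was lower was not tested. Without MHY 24, 5 of 33 glycolysis transcripts were called and 28 of 33 were below 0. The 5 were those of Pgk1 (log2 effect -0.94), Tpi1 (-0.74), Aldoa (-0.64), Ldha (-0.61) and Gapdh (-0.43). Of the 19 called transcripts 13 had an effect over 1.5 times smaller without MHY 24, among them Pkm (-0.37), Pgam1 (-0.37), the most-read transcript of Eno1 (-0.24), the more-read of Slc16a3 (-0.95) and Ldha. Without DMSO 25, 8 of 31 were called. Within the first run 8 of 31 were called lower and within the second 13 of 31, and the share of reads differed by -0.999 and -0.975 percentage points in the 2 runs. With reads of mapping quality 10 or more, which leaves out reads that fit several transcripts about equally well, 9 of 18 were called.

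**Figure D1:**
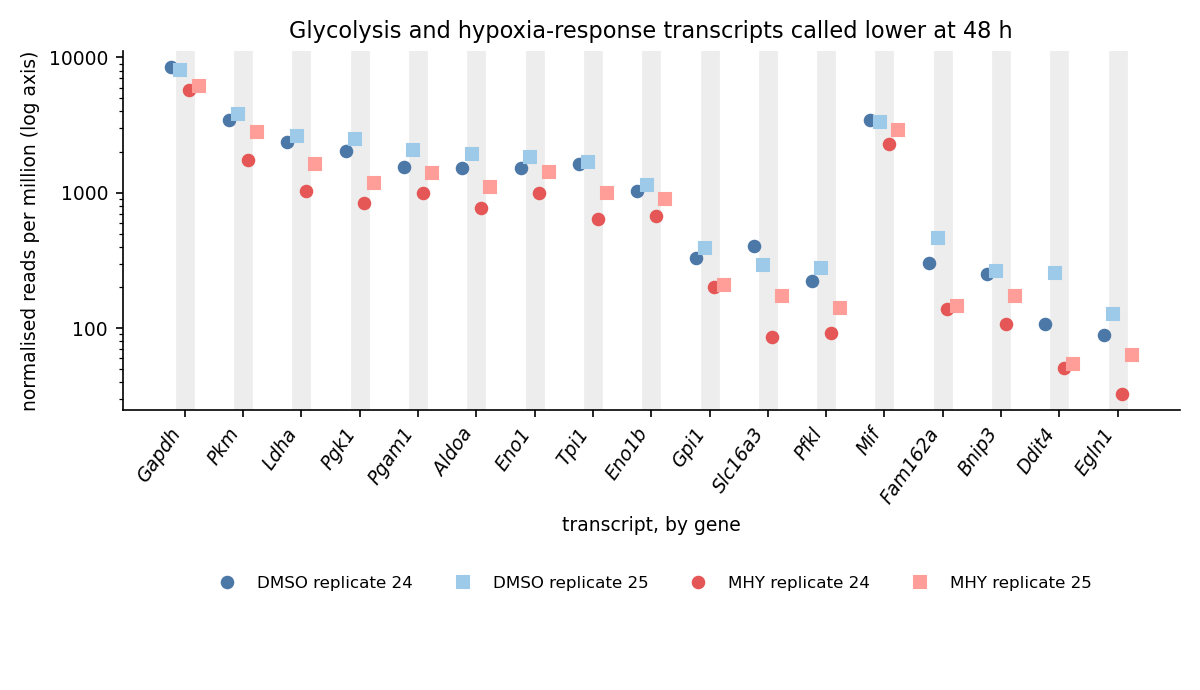
Normalised RPM (log axis) of the most-read called transcript of each of 12 glycolysis genes and 5 other hypoxia-response genes, with 1 point for each of the 4 libraries of 48 h (DMSO 24 and 25 in dark and light blue, MHY 24 and 25 in red and pink). The red and pink points lie below both blue points for each gene shown, and the gap is small for Gapdh and Mif and wide for Ddit4, Fam162a and Slc16a3.

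Among genes that cells use in low oxygen, outside glycolysis, calls were likewise in the lower direction. The list took 0.544% and 0.569% of reads in the DMSO libraries and 0.365% and 0.438% in the MHY libraries (exact permutation test, p = 0.3333), and 5 of its 11 tested transcripts were called lower (45.5%), with a median effect of -0.98. Ddit4 (REDD1), which restrains mTORC1, was at 108 and 257 normalised RPM under DMSO and at 50.8 and 54.5 under MHY (log2 effect -1.73 ± 0.33, limma adjusted p = 2.29e-04). Its DMSO libraries stood far apart, but both MHY libraries were below them. Fam162a, a mitochondrial protein induced by hypoxia, was at 305 and 468 under DMSO and at 138 and 145 under MHY (-1.45 ± 0.22, limma adjusted p = 6.03e-07). Bnip3, a mitophagy receptor, fell by 0.98 on the log2 scale, Egln1, the oxygen sensor that marks HIF for destruction, fell by 1.32, and Mif, a cytokine, fell by 0.40. Without MHY 24 or without DMSO 25, 1 of the 11 was called, Fam162a, and 10 of the 11 were below 0. Without MHY 24 the effect was -0.58 for Bnip3, -0.76 for Egln1 and -0.21 for Mif, and without DMSO 25 it was -1.02 for Ddit4.

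HIF binds DNA at elements with a core such as ACGTG, so promoters were searched for these letters on both strands, from 250 bases before to 50 bases after the annotated start. Windows from RefSeq (build GRCm38.p6) were found for 2627 of 3488 tested genes. The letters were present in 10 of 16 glycolysis windows (62.5%) and 7 of 7 of the other hypoxia genes, against 30.3% of windows of all tested genes and 19.6% of all windows of the table. Elongation factors and other TOP mRNAs had them in 5 of 9 windows (55.6%) and ribosomal proteins in 17 of 55 (30.9%). The actin list had them in 8 of 41 (19.5%) and the sterol list in 3 of 16 (18.8%). The glycolysis and hypoxia genes were chosen for known roles in which HIF takes part. A high share could follow from that choice, so it tests no cause. The stretches around the match are shown for 6 genes called lower, 4 of glycolysis and 2 of the hypoxia list, 5′ to 3′ on the gene's strand, with the match in capitals. The match reads CACGT where the core lies on the other strand.
Pgk1 (chrX:106186959-106186983, plus): atggaagtagCACGTctcactagtc
Ldha (chr7:46845760-46845784, plus): tgggttcccgCACGTccgctgggct
Aldoa (chr7:126799366-126799390, minus): tggctcgagtCACGTcctagcgggg
Slc16a3 (chr11:120949043-120949067, plus): tgcgcgggggACGTGccgcgcgacg
Fam162a (chr16:36071628-36071652, minus): gctcgtcgcgCACGTcccgcacgcc
Ddit4 (chr10:59951943-59951967, minus): aacgttgcgaACGTGcgcccggtgc
A match of 5 letters is a description of the promoter and does not show that a factor binds there. The lysosome list, which had no transcript called lower, held the same letters in 15 of 29 windows (51.7%), 10 of which contained CACGTG, a longer word that always includes ACGTG and occurs in 12.8% of windows of tested genes.

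Sterol and fatty acid synthesis, another process downstream of mTORC1, had 2 of 29 tested transcripts called, both lower (6.90%), and 25 of 29 below 0 with a median effect of -0.47. Fdps, farnesyl diphosphate synthase, was at 380 and 367 normalised RPM under DMSO and at 188 and 249.7 under MHY (log2 effect -0.81 ± 0.19, limma adjusted p = 0.00813). Scd2, a desaturase that makes monounsaturated fatty acids, was at 277 and 370 under DMSO and at 147 and 254 under MHY (-0.82 ± 0.21, limma adjusted p = 0.0216). Both pairs of MHY libraries lay below the DMSO libraries. Neither was called without MHY 24, where the effects were -0.57 for Fdps and -0.35 for Scd2, or without DMSO 25. The share of reads of the list was 0.2995% and 0.293% under DMSO and 0.206% and 0.253% under MHY (exact permutation test, p = 0.3333).

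For the cytoskeleton, the actin list as a whole was centred near the median of all transcripts, and 3 of its 66 transcripts (4.55%) were called higher, 1 of which (Tagln) was tested only because its reads in the MHY libraries reached the filter. Tmsb4x (ENSMUST00000112172, chrX:167207093-167209315), thymosin beta 4, which sequesters actin monomers, was at 314 and 276 normalised RPM under DMSO and at 784 and 695 under MHY, a rise to 2.53 times the DMSO level (log2 effect 1.34 ± 0.17, limma adjusted p = 4.93e-09). The MHY libraries were close together and far above both DMSO libraries, and without MHY 24 the effect was 1.25. Tagln, transgelin, an actin-binding protein of contractile cells, was at 18.8 and 16.2 under DMSO and at 95.7 and 72.7 under MHY, from 4, 5, 32 and 16 reads. Having entered the test through the group where it was high, it is given as values only, and it was called in 0 of the 4 fits with 1 library left out, in 1 of which it could not be tested. Cnn2, calponin 2, rose by 0.97 on the log2 scale, from 65.6 and 103.9 to 200.4 and 136. The median effect of the 66 transcripts was 0.03, and 37 of 66 were above 0. Actg1, gamma actin and the most-read of them, was at 2977 and 2838 under DMSO and at 3849 and 3360 under MHY (log2 effect 0.32, limma adjusted p = 0.0651). The reads of the whole list made up 1.501% and 1.45% under DMSO and 1.78% and 1.72% under MHY (exact permutation test, p = 0.3333).

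Vim, vimentin, the intermediate filament of undifferentiated and mesenchymal cells, was at 187.5 and 247 normalised RPM under DMSO and at 655 and 318 under MHY (log2 effect 1.101 ± 0.21, limma adjusted p = 1.46e-04). It was 1 of 3 intermediate filament transcripts tested. Its rise was uneven, with MHY 24 far above MHY 25, and without MHY 24 the effect was 0.53 and was not called. Among 17 microtubule transcripts 1 was called, lower (5.88%), and the median was -0.22. This was Stmn1, stathmin, which destabilises microtubules, at 1139 and 1192 under DMSO and at 691 and 899 under MHY (-0.59 ± 0.14, limma adjusted p = 0.00875), with an effect of -0.37 and no call without MHY 24. Tubb5 and Tuba1b, the most-read tubulins, had effects of -0.38 and -0.32 (limma adjusted p = 0.0558 and 0.100). Without MHY 24 or without DMSO 25, Tmsb4x of the actin list was called and Cnn2 was not.

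In the lysosome and autophagy list, 3 transcripts rose and most of the others lay above 0. Its share of reads was 0.582% and 0.555% under DMSO and 0.850% and 0.680% under MHY, 1.35 times the DMSO mean (exact permutation test, p = 0.3333). Of its 79 genes 42 could be tested, as 45 transcripts, of which 3 were called higher (6.67%) and none lower, and 33 of 45 were above 0 with a median effect of 0.39. Cd63, a tetraspanin of late endosomes and lysosomes, was at 103.1 and 113.7 normalised RPM under DMSO and at 368 and 154 under MHY (log2 effect 1.21 ± 0.26, limma adjusted p = 0.00180). Sqstm1 (p62), the adaptor that hands cargo to autophagosomes, was at 159 and 143 under DMSO and at 272 and 232 under MHY (0.76 ± 0.22, limma adjusted p = 0.0486). Map1lc3b (LC3B), which coats the autophagosome membrane, was at 145 and 117 under DMSO and at 287 and 186 under MHY (0.89 ± 0.24, limma adjusted p = 0.0278). The MHY libraries of these 3 did not overlap with the DMSO libraries, and MHY 24 was the higher each time.

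Among 16 transcripts of subunits of the lysosomal proton pump, 14 were above 0 with a median of 0.58, and none passed the test (limma, 5 higher and 0 lower at an unadjusted p under 0.05). Of 10 transcripts of hydrolases or their activators 9 were above 0, with a median of 0.51, and again none passed (3 higher at an unadjusted p under 0.05). Of all 4104 transcripts tested, 528 had an unadjusted p under 0.05 (limma) in either direction, and 47.8% of effects were above 0. Genes that dock or sense mTORC1 at the lysosome, and TFEB relatives, had 2 of 6 above 0 and a median of -0.02. Lamp1, an abundant lysosomal membrane protein, was at 272 and 201 normalised RPM under DMSO and at 449 and 263 under MHY, so its groups overlapped (limma adjusted p = 0.0896). Without MHY 24 none of 42 lysosome transcripts was called and 32 were above 0, with Cd63 at 0.50 and Map1lc3b at 0.54. Without DMSO 25 none of 43 was called, and without MHY 25 the count was 7 of 45.

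**Figure D2:**
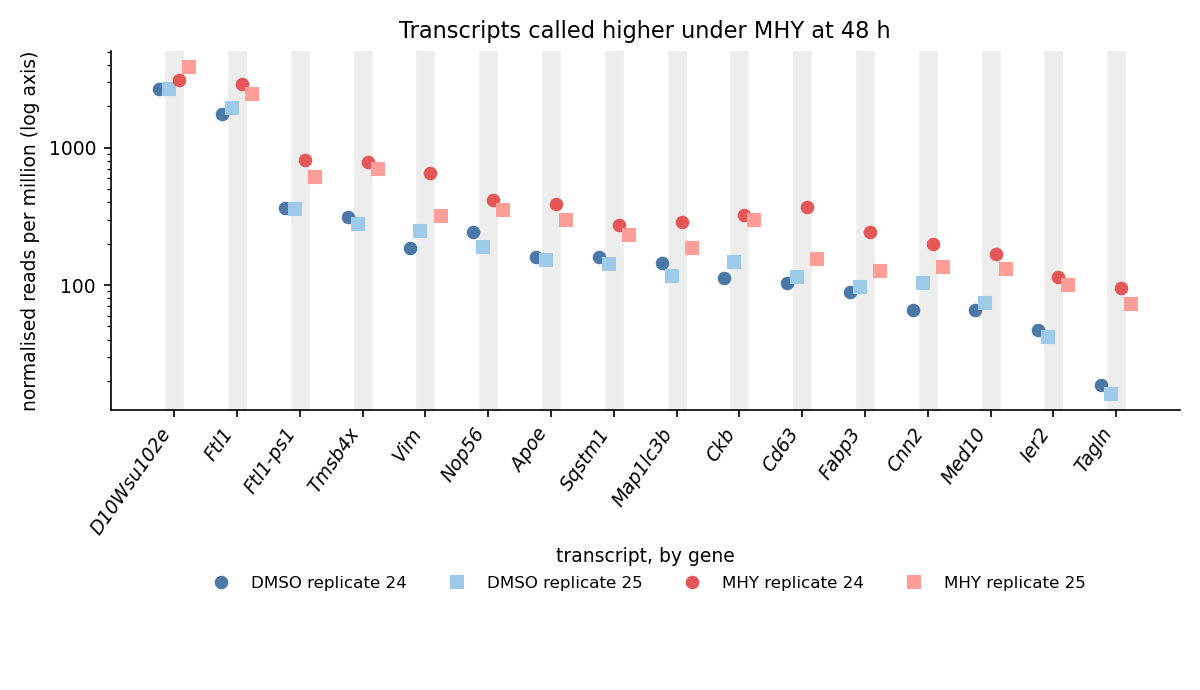
Normalised RPM (log axis) in each of the 4 libraries of 48 h for the 16 transcripts called higher under MHY, of which Tagln entered the test through the MHY libraries alone. Both MHY points lie above both DMSO points for each transcript, and the MHY points are close for Tmsb4x and Ckb and apart for Vim, Cd63 and Fabp3.

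Translation genes, the best-known mTOR targets, were compared in the same way. Ribosomal protein transcripts made up 29.6% and 31.0% of reads under DMSO and 27.3% and 29.1% under MHY, so that neither MHY library reached the DMSO range (exact permutation test, p = 0.3333). Of 184 ribosomal protein transcripts from 79 genes, 9 were called lower (4.89%) and none higher, 159 were below 0 and the median effect was -0.21. Rpl9, of the large subunit, had the most marked fall, from 1360 and 1653 normalised RPM to 867 and 1126 (log2 effect -0.64 ± 0.13, limma adjusted p = 9.49e-04). The other 8 (Rpl27a, Rpl37, Rpl4, Rpl7a, Rplp1, Rps20, Rps24 and Rps4x) fell by 0.25 to 0.39 on the log2 scale. Rplp1, an acidic stalk protein and the most-read of them, went from 9274 and 9573 to 7506 and 8577. These falls were small, and none of the 9 was called without MHY 24 or without DMSO 25, or within the first run.

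With libraries scaled by their total reads in place of the median of ratios, 1 of the 184 was called lower. Among 31 other TOP transcripts 3 were called lower (9.68%), with a median of -0.28. They were Eef1a1, the elongation factor that delivers tRNAs, at 10530 and 12658 under DMSO and 9288 and 9753 under MHY, Eef2, the translocase of the ribosome, which fell by 0.40 on the log2 scale, and Npm1, a nucleolar chaperone, which fell by 0.38. None of these 3 was called without MHY 24, with Eef2 at -0.22 and Npm1 at -0.25, or without DMSO 25, with Eef1a1 at -0.14 in place of -0.28. Of 48 transcripts of initiation and termination factors none was called and the median was 0.02. At an unadjusted p under 0.05 limma had 3 of them higher and 2 lower, against 528 of all 4104 transcripts in either direction. Of 30 for ribosome biogenesis 1 was called, Nop56, a core protein of snoRNA particles, which rose from 244 and 188 to 419 and 354 (log2 effect 0.88 ± 0.20, limma adjusted p = 0.00317), and 21 of 30 were above 0. Nop56 was called neither without MHY 24 nor without DMSO 25.

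In the remaining lists, none of 48 transcripts of ATF4 targets and tRNA synthetases and none of 13 of poly(A) tail factors was called, with medians of 0.17 and -0.30. At an unadjusted p under 0.05 (limma) these lists held 9 higher and 3 lower, and 0 higher and 1 lower. All 4104 transcripts held 528 in either direction. Dut, a nucleotide-pool enzyme, was the 1 of 27 cell cycle transcripts called and Hsp90ab1 the 1 of 25 chaperone transcripts, both lower. Of the pluripotency markers, Tdgf1, a co-receptor for Nodal, fell from 286 and 341 normalised RPM to 138 and 195 (log2 effect -0.98 ± 0.21, limma adjusted p = 0.00180), the 1 call among 9. None of Dut, Hsp90ab1 and Tdgf1 was called without MHY 24 or without DMSO 25. Pou5f1, the defining factor of the undifferentiated state, was at 2485 and 2942 under DMSO and 2213 and 2711 under MHY, with overlapping groups.

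**Figure D3:**
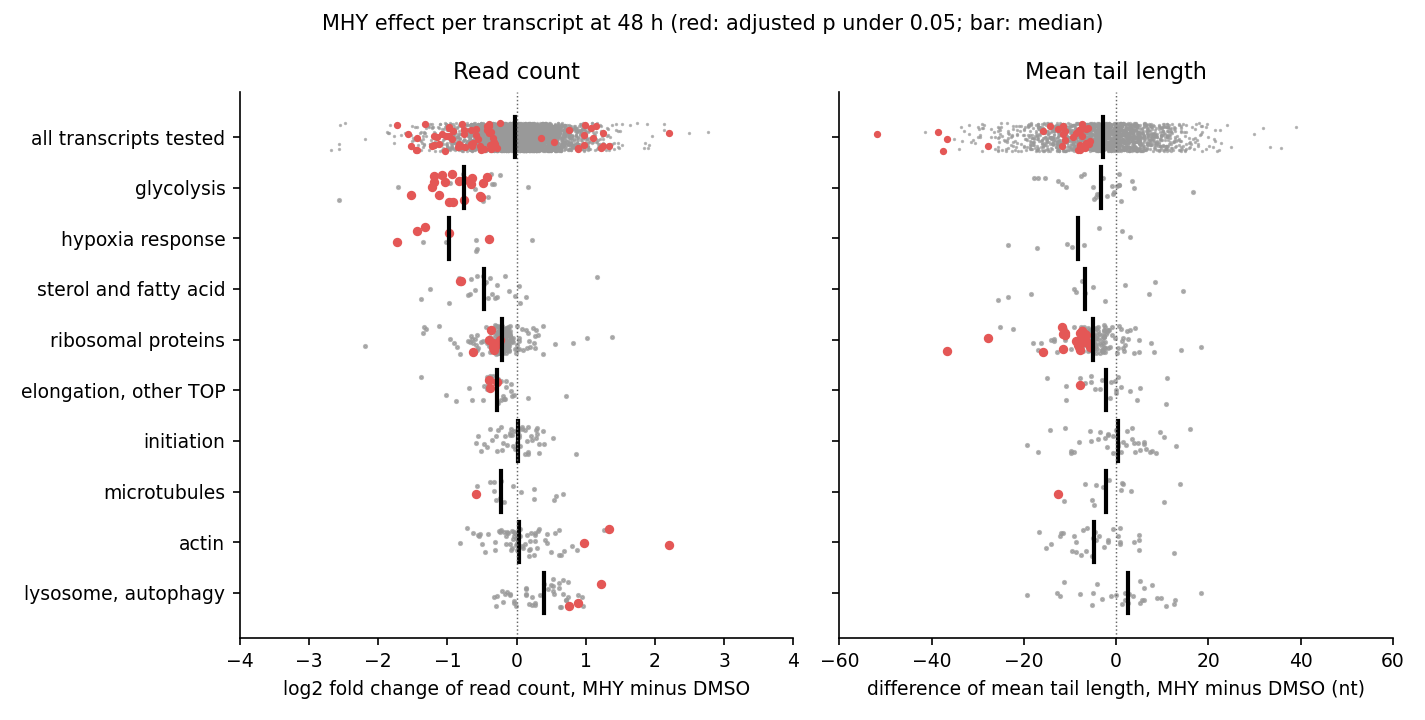
Effect of MHY at 48 h for each tested transcript, grouped by gene list, as log2 read number and as mean tail in nt, with called transcripts in red and a bar at the median of each list. The glycolysis and hypoxia medians lie at -0.76 and -0.98 in read number and the lysosome median at 0.39, while in tail length the red points are mostly ribosomal proteins, below 0.

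Tail lengths were compared next, first as whole distributions of all reads. The median tail was 96.76 nt in DMSO 24, 99.29 nt in DMSO 25, 92.37 nt in MHY 24 and 98.24 nt in MHY 25, so the groups overlapped. The gap between the cumulative distributions of the group means was largest at 61 nt, where MHY had 2.52 percentage points more reads at or below that length. The 2 MHY libraries differed from each other by more than that, with a largest gap of 4.32 percentage points at 94 nt. Tails shorter than 30 nt made up 2.87% and 2.57% of reads under DMSO and 4.46% and 3.38% under MHY, and here the 2 groups did not overlap (exact permutation test, p = 0.3333). Mitochondrial mRNAs, whose tails are made by a separate polymerase, had medians of 61.1 and 59.9 nt under DMSO and 63.1 and 61.5 nt under MHY. Their share of tails under 30 nt was 2.26% and 1.70% under DMSO and 2.95% and 2.36% under MHY, so it too was higher in both MHY libraries.

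For ribosomal proteins the tails of the MHY libraries lay lower at each quartile on average. Their lower quartile was 60.9 and 64.5 nt under DMSO and 55.5 and 59.5 nt under MHY, their median 88.9 and 93.7 nt against 82.7 and 89.0 nt, and their upper quartile 123.8 and 128.6 nt against 118.6 and 125.4 nt. For the lower quartile the groups did not overlap, while for the median MHY 25 was just above DMSO 24. The largest gap between the group means was 4.99 percentage points at 64 nt. The MHY libraries differed by up to 5.18 points and the DMSO libraries by up to 4.02 points. Tails under 30 nt made up 2.61% and 2.05% of these reads under DMSO and 4.43% and 3.36% under MHY (exact permutation test, p = 0.3333).

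Microtubule tails were also shorter in both MHY libraries. Their medians were 102.9 and 101.7 nt under DMSO and 98.2 and 100.4 nt under MHY (exact permutation test, p = 0.3333), and the largest gap between the group means was 3.53 percentage points at 131 nt, against 1.30 points between the DMSO libraries and 2.67 between the MHY libraries. With each transcript weighted equally the difference of the medians was 0.28 nt in the other direction. Tails of pluripotency markers were shorter as well, with medians of 110.8 and 111.3 nt under DMSO and 103.8 and 107.3 nt under MHY, but the MHY libraries were 6.22 percentage points apart at their largest gap, against 5.04 points between the group means. The median chaperone tail was longer in both MHY libraries, at 98.96 and 100.2 nt under DMSO and 101.4 and 104.7 nt under MHY, and this difference turned with each transcript weighted equally. At the short end the chaperones went the other way, with 3.33% and 2.67% of tails under 30 nt under DMSO and 4.43% and 4.05% under MHY. In the glycolysis, actin and lysosome lists the medians of the groups overlapped. Glycolysis tails had medians of 106.0 and 104.8 nt under DMSO and 96.8 and 107.8 nt under MHY, and the 2 MHY libraries were 9.09 percentage points apart at their largest gap, against 3.13 points between the group means. Actin tails had medians of 103.3 and 104.3 nt under DMSO and 101.6 and 104.8 nt under MHY. Lysosome tails had medians of 99.1 and 101.4 nt under DMSO and 99.6 and 103.0 nt under MHY, and MHY 24, whose tails were the shortest over all mRNAs, was here within the range of the DMSO libraries. The under-30-nt share was higher in both MHY libraries for glycolysis, at 1.13% and 0.977% under DMSO and 2.54% and 1.17% under MHY, where MHY 25 was just above DMSO 24. It was also higher for actin, at 1.65% and 1.59% under DMSO and 2.63% and 2.01% under MHY. The under-30-nt share of lysosome reads overlapped, at 4.18% and 3.41% under DMSO and 4.04% and 3.16% under MHY.

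**Figure D4:**
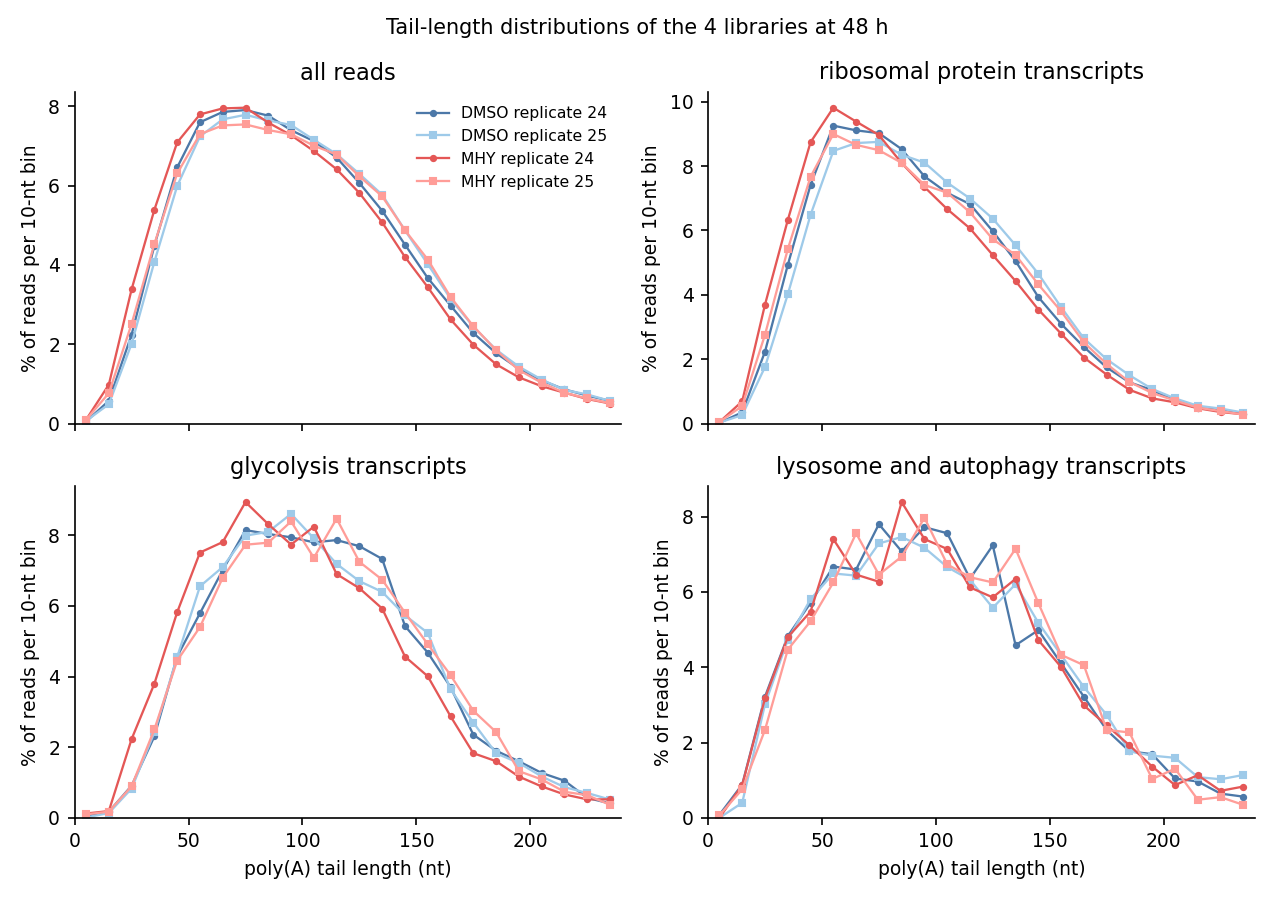
Percentage of reads in bins of 10 nt of tail length, in each of the 4 libraries of 48 h, for all reads, ribosomal proteins, glycolysis and the lysosome list. For ribosomal proteins the MHY curves lie above the DMSO curves among short tails, and for the lysosome list the curves cross, with a largest gap of 1.58 percentage points between the cumulative group means and 4.20 between the DMSO libraries.

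Single transcripts were then tested where none of the 8 libraries had fewer than 10 reads. Of 1866 such transcripts, 30 (1.61%) had a shorter mean tail under MHY and none a longer one (limma weighted by read number, adjusted p under 0.05). In both directions together 175 had an unadjusted p under 0.05. Over all 1866 the median effect was -2.91 nt, and 36.1% of effects were above 0. Both MHY values were below either DMSO value in 25.4% and above in 10.3%. The ribosomal proteins supplied 22 of the 30. They were 22 of 142 tested (15.5%), 122 of 142 were below 0, and their median effect was -4.93 nt. Ribosomal proteins are deeply read and the fit weights by read number, and with no weights none of the 1866 was called. The part of read depth in these calls was not tested. Without MHY 24 or without DMSO 25 none of the 142 was called, and without MHY 25 there were 38 of 143. The effect was over 1.5 times smaller in 15 of the 22 without MHY 24 and in 9 without DMSO 25. With tails centred on the median transcript of each library 5 of 142 were called, and 104 were below 0.

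Rps24, of the small subunit, had mean tails of 96.7 and 104.6 nt under DMSO and 81.8 and 91.5 nt under MHY (effect -15.9 ± 2.95 nt SE, n = 2, limma adjusted p = 0.00252). Rpl7, of the large subunit, had 107.7 and 106.7 nt under DMSO and 92.9 and 99.6 nt under MHY (-11.6 ± 2.06 nt, limma adjusted p = 0.00233). Rps3a1 had 97.5 and 104.6 nt against 88.5 and 94.3 nt (-11.0 ± 2.06 nt, limma adjusted p = 0.00252). For these 3 the groups did not overlap and MHY 24 was the shortest library. Without MHY 24 the effects were -10.1 nt for Rps24, -7.52 nt for Rpl7 and -7.48 nt for Rps3a1. Rpl27a, called in read number too, went from 94.04 and 94.5 nt to 85.3 and 88.2 nt, and Rpsa, which anchors the small subunit and is also a laminin receptor, from 101.1 and 104.7 nt to 93.3 and 98.4 nt. In Rpl23a and Rps27a the groups overlapped by a small margin although they were called. Transcripts called in both read number and mean tail numbered 4.

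Rack1, a scaffold protein of the small subunit and a TOP mRNA, was the 1 of 24 other TOP transcripts called, with mean tails of 100.7 and 109.1 nt under DMSO and 95.04 and 102.6 nt under MHY. Its effect of -7.73 nt was -3.32 nt without MHY 24 and -2.55 nt without DMSO 25, and it was called in neither fit. Tuba1a, an alpha tubulin, was the 1 of 14 microtubule transcripts called, at 110.2 and 108.6 nt under DMSO and 95.7 and 98.4 nt under MHY (effect -12.7 ± 2.81 nt, limma adjusted p = 0.0120), and it was called in 1 of the 4 fits with 1 library left out. Tuba1b, its close relative, was at 98.6 and 96.1 nt under DMSO and 97.9 and 99.4 nt under MHY (limma adjusted p = 0.917). No glycolysis (26), actin (32), lysosome (29) or initiation factor (42) transcript was called in mean tail. At an unadjusted p under 0.05 limma had 4 shorter in glycolysis, 0 in actin, 1 longer in the lysosome list and 1 shorter among initiation factors. Pfn1, profilin, a monomer-binding actin regulator, had longer tails in both MHY libraries, at 114.0 and 116.9 nt under DMSO and 121.6 and 119.2 nt under MHY (limma adjusted p = 0.584).

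**Figure D5:**
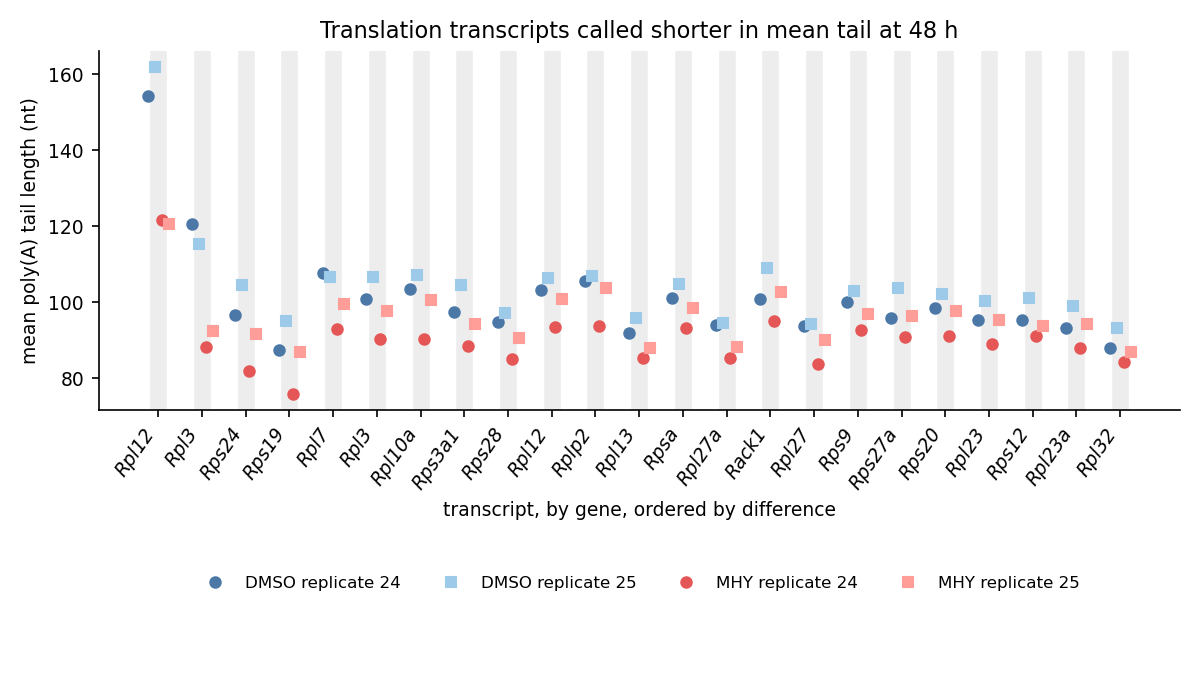
Mean tail (nt) in each of the 4 libraries of 48 h of the 23 translation transcripts called with a shorter mean tail under MHY, 22 of ribosomal proteins and Rack1. MHY 24 is the shortest library for 22 of them and MHY 25 for 1 transcript of Rpl12, and for Rpl23a, Rps27a and Rack1 a MHY library reaches the range of the DMSO libraries.

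TOP mRNAs start with a pyrimidine run, and promoter windows were searched for runs of at least 6 C or T that reach within 10 bases of the annotated start. A run was found in 30 of 55 ribosomal protein windows (54.5%), against 27.1% of windows of tested genes and 29.2% of all windows of the table. It is shown, in capitals, for 5 of the transcripts called with shorter tails that have a run of at least 9 bases, in 30 bases beginning 10 before the start (RefSeq, GRCm38.p6).
Rack1 (chr11:48800350-48800379, plus): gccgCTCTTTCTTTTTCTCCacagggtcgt
Rpl27a (chr7:109519185-109519214, plus): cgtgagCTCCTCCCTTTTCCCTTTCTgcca
Rplp2 (chr7:141447641-141447670, plus): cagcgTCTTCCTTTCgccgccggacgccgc
Rps12 (chr10:23787190-23787219, minus): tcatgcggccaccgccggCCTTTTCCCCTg
Rps9 (chr7:3704031-3704060, plus): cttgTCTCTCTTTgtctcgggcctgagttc
The run of Rps12 begins after the annotated start. Rpl10a, Rpl12 and Rpl13 also had a run of at least 6 bases, with 7, 7 and 4 bases of it inside the same window. The other ribosomal protein genes called with shorter tails had no such run or no matched window. The annotated start is that of RefSeq, and the reads do not mark the start used in these cells.

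The short and middle tail classes of the study were also tested. The share of tails shorter than 30 nt was called higher in 7 of 1866 transcripts (0.375%) and lower in none, and 6 of the 7 were of ribosomal proteins (6 of 142, 4.23%). Rps9 had 1.01% and 1.00% of tails in this class under DMSO and 2.44% and 2.99% under MHY. Rpl23 had 3.41% and 3.26% under DMSO and 6.60% and 5.98% under MHY, and Rps21 0.350% and 0.367% against 1.99% and 1.60% (limma on log2 odds, adjusted p = 0.0234, 0.0399 and 0.0399). The other was Ybx1, an mRNA-packaging protein, with 0.283% and 0.577% under DMSO and 2.51% and 2.22% under MHY. Over all 1866, both MHY shares were above either DMSO share in 26.3% and below in 7.66%. The shares rest on few reads, and none was called with weights by binomial variance. Without MHY 24 none of the 7 was called and without DMSO 25 only that of Rpl7, and Rps9, Rpl23, Rps21 and Ybx1 were called in 0 of the 4 fits with 1 library left out. The share of 30 to 90 nt was called higher in 5 transcripts (0.268%), among them Rpsa, at 45.1% and 40.7% under DMSO and 53.0% and 48.1% under MHY, Rpl7 and Tuba1a. None of the 5 was called without MHY 24 or without DMSO 25. Over all 1866, both MHY shares of this class were above either DMSO share in 18.0% and below in 15.8%.

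The same contrast at 24 h, the comparison most like it, was read in the same fits to see where 48 h differed. At 24 h 2 transcripts were called in read number (0.0487%), both higher, and 1 in mean tail (0.0536%). The difference between the 48 h and 24 h effects was called for 9 transcripts in read number (0.219%), and 6 of the 33 glycolysis transcripts were among them, all with the lower effect at 48 h. Without MHY 24 the difference was called for 1 transcript, that of Gapdh, and leaving out 1 library gave 1 to 38. The median effect on the glycolysis list was -0.02 at 24 h and -0.76 at 48 h. Pgk1 differed by -1.03 on the log2 scale (limma adjusted p = 2.2e-04), from -0.19 at 24 h to -1.22 at 48 h, and Aldoa by -0.97 (limma adjusted p = 0.00151), from 0.05 to -0.93. The lysosome list had a median of 0.37 already at 24 h, and none of its 45 transcripts was called for the difference. Ferritin light chain, Ftl1, had effects of 0.55 at 24 h and 0.54 at 48 h, both called. No difference in mean tail was called, and 95 of 1866 had an unadjusted p under 0.05 (limma). The time points share no library, but no run held both, so time and run cannot be told apart.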

How the data were processed

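Guppy was the base caller the authors used, according to the study's methods, and Deeplexicon split the barcodes. Reads were aligned to mouse transcripts (mm10, GENCODE) with minimap2 (2.20 in the submitters' processing notes), and Nanopolish estimated each tail. The deposited table has 1 alignment a line. Its tail length is in nt with no normalization, the deposited mapping quality is a score, the deposited barcode confidence is a fraction and the deposited read rate, in nt per second, is a further value of each read. It holds no counts per transcript, so reads were counted here. Of 1353024 alignments of 48 h, 82.1% carried PASS, and mitochondrial, repeat and spike-in alignments, and transcripts whose biotype in the table is a pseudogene, were then set aside. Transcripts such as Ftl1-ps1 and Rps2-ps10, named as pseudogenes but given there as protein coding or processed transcript, stayed (9 of those tested).

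Read counts were fitted with limma voom (limma 3.58.1, R 4.3.3) on median-of-ratios size factors, where 2 or more of 8 libraries had 10 or more reads. Mean tails, and log2 odds of tail classes with 0.5 added, were fitted with limma weighted by read number, where no library had fewer than 10 reads. Each fit held all 8 libraries in 4 groups. A library's group came from the labels and the condition given with its reads. Which library of a group is replicate 1 in the labels is not shown, and no result uses it. P-values were adjusted by Benjamini-Hochberg over all transcripts of a contrast, with a threshold of 0.05. Pooled values per library were compared by exact permutation. Fits were checked on simulated data with known changes. Of changes in read number, 81% of those of 2-fold and 26% of those of 1.5-fold were called. Of 15-nt changes in mean tail 53.5% were called, and of 3-fold changes in the odds of tails under 30 nt 28%. Among unchanged transcripts these fits called 0.102%, 0.42% and 0.18%. The simulated shares had no spread between libraries beyond sampling. A transcript that was not called may thus have changed. Alternatives were single runs, left-out libraries, mapping quality, barcode confidence, summing per gene, scaling, filters, weights and centring. Named transcripts were up to 10 called in each direction by smallest adjusted p, called members of 19 gene lists, and the most-read members of the lists. From the last kind 2 of each main list are given. Comparisons named outside this rule were chosen after their values were seen. The members and lists were chosen with earlier results of these data known.

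Depth limits what can be seen: a library had 213673 to 316546 kept reads, and a transcript entered the tail fits with as few as 10 reads in a library. Intervals are standard errors of a difference between groups of 2 libraries, with the residual spread estimated over all 8.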

Additional observations from a re-analysis of the deposited data

Results flagged for a closer look

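In 9 transcripts the MHY effect on read number differed between 48 h and 24 h by a test of the difference itself (limma interaction, adjusted p under 0.05). Of these, 6 are glycolytic and had a lower effect at 48 h: Pgk1 (difference -1.03 on the log2 scale, from -0.19 at 24 h to -1.22 at 48 h), Ldha (-0.90, from -0.08 to -0.98), Gapdh (-0.55, from 0.07 to -0.48), Aldoa (-0.97, from 0.05 to -0.93), Tpi1 (-0.91, from -0.17 to -1.08) and Pfkl (-1.40, from 0.21 to -1.20). Tecr, a reductase of long-chain fatty acid synthesis, also differed (-1.96, from 0.40 to -1.57), but it had 22, 40, 6 and 26 reads in DMSO 24, DMSO 25, MHY 24 and MHY 25, and without MHY 24 its effect at 48 h was 0.01. A higher effect at 48 h was seen for Tmsb4x (1.13, from 0.21 to 1.34) and for Nop56 (1.27, from -0.39 to 0.88). Without MHY 24, 1 transcript differed between the times, that of Gapdh.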

How the results depend on the processing

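The 4 fits were repeated with 1 choice changed at a time. For read number, 71 transcripts were called, and 33 with the 48 h libraries alone, 19 and 39 within the first and second run, 41 with mapping quality of at least 10, 32 with barcode confidence of at least 0.9, 46 when scaled by total reads and 213 without a filter. Scaling by total reads gave 22 higher and 24 lower in place of 16 and 55, and shifted Rpl23a to 0.0055 and Pfn1 to 0.098. Leaving out 1 library gave 13 to 150. Pfn1, at -0.0025, was also above 0 with the 48 h libraries alone (0.00718) and in the second run (0.032), and ranged from -0.12 to 0.15 with 1 library left out, and Eno1 (ENSMUST00000080149) from -1.35 to 0.066.

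For mean tail, 30 were called, and 19 with the 48 h libraries alone, 11 and 9 within the runs, 10 with the mapping quality limit, 15 per gene, 0 without weights (limma), 18 with at least 30 reads, 10 after centring and 0 to 59 with 1 library left out. Pkm was at -0.092 nt with the confidence limit, Actg1 at 1.23 nt after centring and 0.38 nt with the median tail, and Tuba1b at -2.062 nt in the second run. With 1 library left out Gapdh ranged from -8.195 to 1.78 nt, Pkm from -2.14 to 3.14 nt and Tuba1b from -0.026 to 2.55 nt.

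The under-30-nt calls, 7, were 2 with the 48 h libraries alone, 0 in each run, 13 with the mapping quality limit, 2 with the confidence limit, 0 without weights, 3 with a variance trend, 0 with binomial weights, 0 for tails under 20 nt and 0 to 3 with 1 library left out. The 30 to 90 nt calls, 5, were 0, 2 and 3 with the 48 h libraries alone and in the runs, 1 and 3 with the mapping and confidence limits, 0 without weights, 3 for 40 to 80 nt and 0 to 33 with 1 library left out. The calls for the difference between times, 9, were 5 in the first run, 5 with the confidence limit, 14 per gene, 96 without a filter and 1 to 38 with 1 library left out. The fit of the 48 h libraries alone cannot give this difference. The variance trend and binomial weights were chosen after seeing the data.

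In pooled reads, the MHY minus DMSO median tail with 1 library left out ran from -5.66 to 0.22 nt over all reads, -6.56 to 0.013 nt for other TOP mRNAs, -8.63 to 2.35 nt for glycolysis, -2.21 to 1.00 nt for actin and -0.68 to 2.69 nt for lysosome. With transcripts weighted equally the microtubule median was 0.28 nt higher under MHY, and in the second run the lysosome median was -0.58 nt. The lysosome under-30-nt share, lower under MHY by 0.197 percentage points, was 0.443 points with the mapping quality limit, 0.0077 with the confidence limit, 0.330 in the second run and 0.296 with equal weights, and -0.638 to 0.243 with 1 library left out. The share of reads of the ribosomal protein, other TOP, glycolysis, hypoxia, actin, microtubule, lysosome and sterol lists kept its direction under each alternative run for it. Without MHY 24 the shares of poly(A) tail factors, pluripotency markers and mesoderm markers turned, the last also without DMSO 25. The cause of these changes was not tested.

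Libraries sharing a number (24 or 25) are not said to be paired, and their deviations from the group means correlated at 0.024 in read number and 0.0089 in mean tail at 48 h. With a replicate block 92 transcripts were called in read number, 35 in mean tail, 10 and 7 in the tail classes, 15 of 33 in glycolysis and 25 of 184 among ribosomal proteins, and Pfn1 was at 0.0077. Of other values of named transcripts, 899 had the same call, 402 lost it and 12 gained one, with 270, 196 and 9 when 1 library was left out.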

Other observations

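Outside the gene lists, 8 transcripts rose in read number and 13 fell under MHY at 48 h (limma voom, adjusted p under 0.05), all of them described only after their values were seen. Those that rose included Ckb, the brain-type creatine kinase that buffers ATP, at 112.5 and 146 normalised RPM under DMSO and 326 and 295 under MHY, and Apoe, a lipid carrier, at 159 and 153 against 386 and 299.7. The heart-type fatty acid binding protein Fabp3 rose from 89.1 and 97.4 to 245 and 127, and the epidermal-type Fabp5 fell from 1725 and 1494 to 1038 and 1308. Without MHY 24 their effects were 0.44 and -0.28 on the log2 scale, and each was called in 1 of the 4 fits with 1 library left out. Ftl1, ferritin light chain, rose to 1.46 times the DMSO level and its copy Ftl1-ps1 to 1.98 times. Their reads cannot be told apart with certainty. The immediate early gene Ier2 and the Mediator subunit Med10 rose by 1.25 and 1.08 on the log2 scale.

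Among those that fell were Slc25a1, the mitochondrial citrate carrier that supplies lipid synthesis, at 164 and 123 normalised RPM under DMSO and 53.8 and 77.2 under MHY, and Lefty1, a Nodal antagonist, at 84.4 and 87.7 against 29.9 and 31.8. Igfbp2, an insulin-like growth factor binding protein, went from 1013 and 990.5 to 592 and 799. In each of these the MHY libraries lay below the DMSO libraries. With 1 library left out Lefty1 was called in 0 of 4 fits and Igfbp2 in 1, with an effect of -0.32 without MHY 24. Of the 21 transcripts outside the lists, 3 were called without MHY 24 (Ckb, D10Wsu102e and Ftl1-ps1) and 5 without DMSO 25.

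In mean tail, 6 transcripts outside the lists were called shorter. D10Wsu102e had the smallest adjusted p of all 1866 (limma, 2.99e-05), with long tails in all libraries, at 149.7 and 153 nt under DMSO and 137.7 and 137.4 nt under MHY, and it also rose in read number. Vmn2r97, again with long tails, had 144 nt in both DMSO libraries and 133 and 136.5 nt under MHY. Ndufs3, at 133.9 and 143.1 nt under DMSO and 88.0 and 89.9 nt under MHY, had the widest difference, from 10, 25, 37 and 17 reads. Idh3a and Smu1 differed by more than 30 nt but had 25 to 55 reads a library. With 1 library left out, Ndufs3 and Smu1 were called in 2 of 4 fits and Idh3a in 0.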
